A study of Mus musculus with 14 samples.

Results

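The genes described here, 9 in all, serve the calcium stores and calcium signals of the mouse egg: Itpr1, Atp2a2, Atp2b1, Cacna1h, Trpm7, Stim1, Orai1, Mcu and Camk2g. They were taken by gene symbol from the deposited count tables of germinal vesicle (GV) oocytes, which are arrested in prophase of the first meiotic division, and of ovulated oocytes. Each was found in both tables, among 16417 genes listed in both. The study profiled RNA from oocytes that lack CLPX, the unfoldase subunit of a mitochondrial matrix protease. All mice carried floxed alleles of Clpx. Wild-type (WT) oocytes had the genotype label Clpxfl/fl with no Cre, although the titles of the ovulated WT libraries read Clpxfl/f. Conditional knockout (CKO) oocytes had the genotype Clpxfl/fl; Zp3-Cre, in which Cre is driven by the promoter of a zona pellucida gene that is active in growing oocytes. Each genotype had 4 libraries of GV oocytes and 3 of ovulated oocytes, and the labels name no further agent or age. Neither the number of oocytes nor the number of animals behind a library is stated, so p-values measure only the spread between these samples, which may be technical.

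At fertilisation the sperm phospholipase C zeta makes IP3 in the egg, and IP3 opens the receptor ITPR1 in the endoplasmic reticulum, which releases stored calcium in repeated waves. SERCA pumps such as ATP2A2 refill the store, plasma membrane pumps such as ATP2B1 send calcium out of the cell, and entry through channels such as CACNA1H and TRPM7 keeps the waves going. Mitochondria take up part of each wave through MCU, and the kinase CaMKII gamma, made from Camk2g, reads the waves and ends the meiotic arrest of the egg.

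The libraries were made with SMART-Seq2, which primes cDNA on poly(A) tails. The ends of the transcripts are therefore shown for 5 members whose counts differed between the stages. The sequences are windows of 30 bases from the longest annotated transcript of each gene (GENCODE M21, mouse build GRCm38), 5′ to 3′ on the transcript's strand. Capitals mark either the cytoplasmic polyadenylation element TTTTAT or the polyadenylation signal AATAAA or ATTAAA.
Atp2a2: atgtctaatgtaTTTTATtgtaacagacat
Atp2b1: agccactgagccTTTTATtatttgtctatt
Itpr1: ctaaaaatatttAATAAAcgatgcagaatc
Mcu: accttccggaacAATAAAtacttattcaat
Orai1: aaaagaaaccttcagggatactaATTAAAa
The Atp2a2 window is at chr5:122456412-122456441 on the minus strand, with its motif 90 nucleotides from the transcript's end. The RefSeq position of the Atp2a2 gene runs on to 122453513, beyond the end of this transcript. The Atp2b1 window is at chr10:99026057-99026086 on the plus strand, with its motif 75 nucleotides from the end. The other windows lie at chr6:108551078-108551107 (Itpr1, plus strand), chr10:59446991-59447020 (Mcu, minus strand) and chr5:123030427-123030456 (Orai1, plus strand), all in the 3′ untranslated region. Within the last 100 nucleotides on the transcript's strand, TTTTAT or TTTTAAT was found in 2 of the 9 members and in 18.88% of 14962 genes searched in the same way. The signal AATAAA or ATTAAA was found in 9 of the 9 members and in 81.12% of those genes. These are matches of letters in annotated sequence, not measured sites, and tail length was not measured.

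Total counts per library lay between 25086506 and 28471453. Levels are given as CPM, counts over the library size in units of 1e+06, after TMM scaling, which sets each library against the others, with scaling factors of 0.666 to 1.13 in GV and 1.01 to 1.33 in ovulated libraries. Clpx itself was 40.2-fold lower in GV CKO than in GV WT oocytes and 41.8-fold lower in ovulated CKO than in ovulated WT oocytes (edgeR quasi-likelihood test, adjusted p 6.48e-06 and 0.00123). The summed level of 14 oocyte markers was 25922 to 57846 CPM in GV and 13327 to 16772 CPM in ovulated libraries. Granulosa and cumulus markers, of which 14 of 21 were in both tables, summed to 45.9 to 80.3 CPM in GV and 68.7 to 133 CPM in ovulated libraries. Most of that sum was Cyp19a1, with means of 42.9 CPM in GV WT and 76.7 CPM in ovulated WT oocytes. Of 13 such markers tested between the WT stages, 3 were called higher and 1 lower. Markers of theca, stroma, endothelium and blood, 10 of 16 in both tables, summed to 22.7 to 46.6 CPM in GV and 55.4 to 125 CPM in ovulated libraries. Pecam1 made up most of it, with means of 34.5 CPM in GV WT and 69.6 CPM in ovulated WT oocytes. Of 5 tested between the WT stages, 3 were called higher and 0 lower. The part of these cell types in the results below was not tested.

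Between the GV and the ovulated stage, most members of the calcium set changed their share of the mRNA pool. In WT oocytes Itpr1, Atp2a2, Atp2b1, Mcu and Camk2g rose and Orai1 fell, while Cacna1h, Trpm7 and Stim1 did not pass the test. In CKO oocytes the same 5 genes rose, Cacna1h rose as well, and Orai1 fell. Large parts of the transcriptome moved too: in WT oocytes 29.7% of 13158 genes tested were called higher, 34% lower and 63.7% either way, at an adjusted p under 0.05. In CKO oocytes 25.8% were called higher, 29.9% lower and 55.7% either way. Against these, 5 of 9 members were higher and 1 lower in WT oocytes, and 6 higher and 1 lower in CKO oocytes. The stages did not overlap in 6 of 9 members in WT and 7 of 9 in CKO oocytes, against 62.4% and 58.9% of all genes tested. The median log2 fold change of the members was 0.79 in WT and 1.05 in CKO oocytes, against -0.08 and -0.14 over all genes tested. All stage values come from edgeR's quasi-likelihood test over the 14 libraries with Benjamini-Hochberg adjustment. Each stage has a table of its own, so the stage and the table cannot be told apart. CPM is a share of a library, so less RNA per oocyte and fewer oocytes cannot be told apart, and neither can the amount of an mRNA and how well its tail was primed. With scaling to total counts the median of all genes shifted to 0.26 in WT and 0.45 in CKO oocytes, and the share of called genes that were higher in CKO oocytes went from 46.3% to 67.5%. The direction of every stage call on a member was the same under that scaling.

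**Figure D1:**
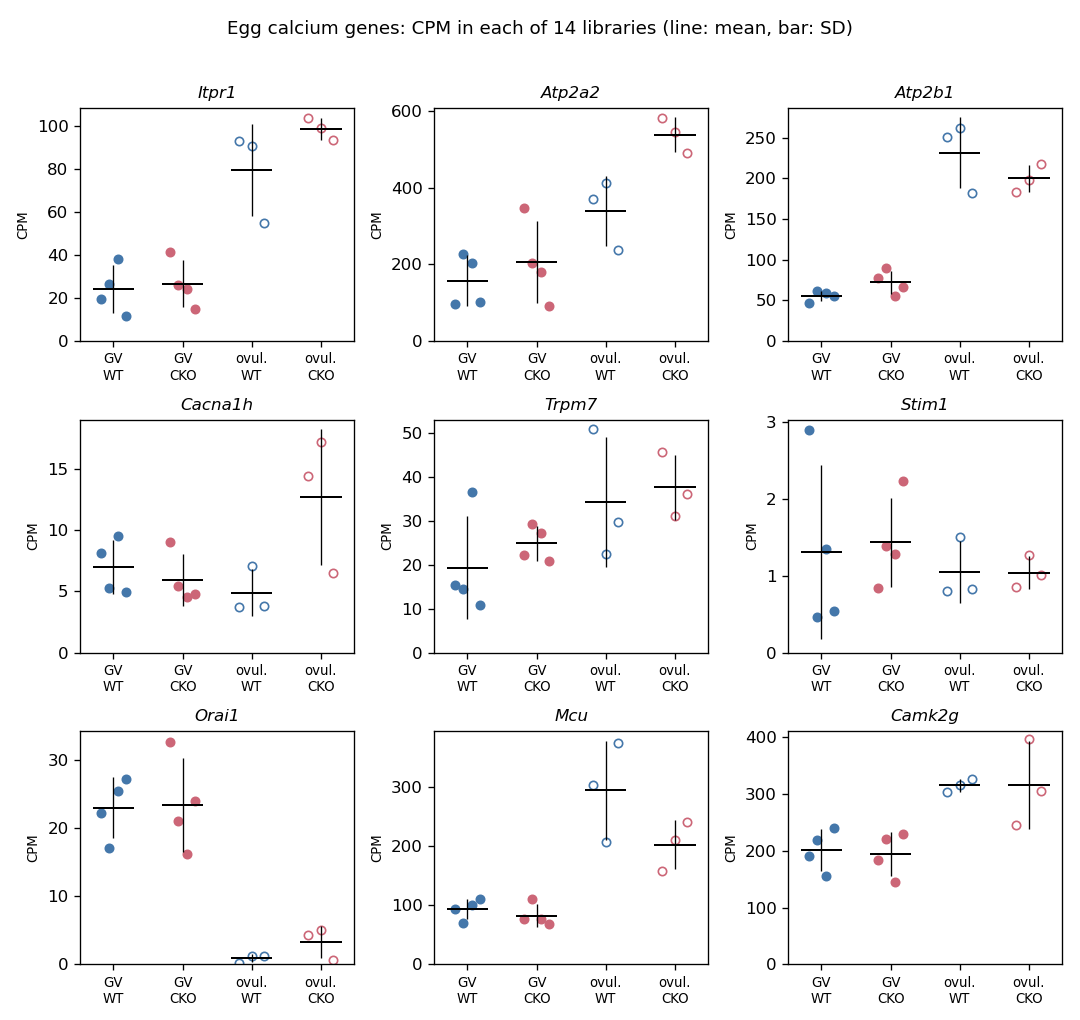
CPM (vertical axes, each starting at 0) of the 9 genes in each of the 14 libraries, by stage and genotype; points are libraries, horizontal lines group means and vertical lines 1 SD. Itpr1, Atp2b1, Mcu and Camk2g lie higher in all ovulated than in all GV libraries, and Orai1 lies lower.

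Itpr1, the IP3 receptor that releases calcium from the store (chromosome 6, 108213083 to 108551116, gene ID 16438), varied among GV libraries. It was at 19.5, 26.5, 37.9 and 11.6 CPM in the 4 GV WT libraries and at 41.1, 25.9, 24.2 and 14.9 CPM in the 4 GV CKO libraries. Ovulated WT libraries had 92.8, 90.7 and 54.8 CPM, and ovulated CKO libraries 103, 98.9 and 93.2 CPM. Every ovulated library was above every GV library, and replicate 4 was the lowest of both GV groups. The log2 fold change from GV to ovulated was 1.69 (SE 0.355, edgeR adjusted p 0.000578) in WT and 1.84 (SE 0.356, edgeR adjusted p 0.000405) in CKO oocytes. Both calls were kept when each library in turn was left out.

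Atp2a2 encodes SERCA2, the pump that returns calcium to the endoplasmic reticulum (chromosome 5, 122453513 to 122502225, gene ID 11938). Its level was 96.9, 226, 202 and 102 CPM in GV WT and 348, 205, 181 and 91.2 CPM in GV CKO libraries. It was 370, 412 and 236 CPM in ovulated WT and 582, 545 and 492 CPM in ovulated CKO libraries. Within each genotype the ovulated libraries were all above the GV libraries, by a narrow gap in WT oocytes, where the lowest ovulated library stood at 236 and the highest GV library at 226 CPM. The log2 fold change was 1.07 (SE 0.380, edgeR adjusted p 0.0208) in WT and 1.34 (SE 0.380, edgeR adjusted p 0.00679) in CKO oocytes. The WT call was lost without GV WT replicate 1 (edgeR adjusted p 0.0648) and without ovulated WT replicate 2 (0.0771).

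Atp2b1 encodes the plasma membrane calcium pump PMCA1 (chromosome 10, 98914630 to 99026143, gene ID 67972). GV WT libraries had 47.2, 61.7, 58.5 and 54.9 CPM, and GV CKO libraries 76.9, 89.4, 55.4 and 66.6 CPM. Ovulated WT libraries had 251, 263 and 182 CPM, and ovulated CKO libraries 184, 198 and 218 CPM. The lowest ovulated library thus lay above the highest GV library, at 182 against 89.4 CPM. Atp2b1 was 4.05-fold higher in ovulated than in GV WT oocytes (log2 fold change 2.02, SE 0.216, edgeR adjusted p 2.01e-06) and 2.68-fold higher in CKO oocytes (1.42, SE 0.214, edgeR adjusted p 5.52e-05).

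Orai1 was the only member called lower between the stages, in both genotypes. ORAI1 is the pore of the store-operated calcium channel, and its gene (chromosome 5, 123015074 to 123030452, gene ID 109305) was at 22.2, 17.1, 25.5 and 27.2 CPM in GV WT libraries. It was at 32.5, 21.0, 16.2 and 24.0 CPM in GV CKO libraries. In ovulated WT libraries it was down to 0.255, 1.26 and 1.29 CPM, from 7, 42 and 39 counts, and in ovulated CKO libraries to 4.31, 5.02 and 0.625 CPM, from 137, 179 and 18 counts. All ovulated libraries lay far below all GV libraries, and among ovulated CKO libraries replicate 3 stood with the WT libraries. Orai1 was 24.8-fold lower in ovulated WT oocytes (log2 fold change -4.63, SE 0.640, edgeR adjusted p 1.57e-05) and 7.25-fold lower in ovulated CKO oocytes (-2.86, SE 0.574, edgeR adjusted p 0.000567). Without ovulated CKO replicate 3 the CKO value was -2.37 (edgeR adjusted p 0.000897).

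STIM1 is the sensor of store filling that opens ORAI1, and its gene had the lowest mean CPM of the members except in ovulated WT oocytes. There the mean of Orai1 was lower, at 0.936 against 1.04 CPM. Stim1 (chromosome 7, 102261514 to 102437319, gene ID 20866) had 2.89, 0.465, 1.35 and 0.537 CPM in GV WT and 0.842, 1.39, 1.28 and 2.22 CPM in GV CKO libraries. It had 0.800, 1.505 and 0.826 CPM in ovulated WT and 0.849, 1.26 and 1.01 CPM in ovulated CKO libraries, so the groups overlapped throughout. Its stage difference was -0.38 (95% interval -1.60 to 0.847) in WT and -0.51 (-1.74 to 0.721) in CKO oocytes on the log2 scale, and both intervals hold changes of either sign. The counts behind Stim1 were 11 to 89 per library.

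Cacna1h encodes the T-type voltage-gated channel CaV3.2 (chromosome 17, 25374285 to 25436334, gene ID 58226). It was at 8.18, 5.32, 9.52 and 4.93 CPM in GV WT and at 9.05, 5.41, 4.51 and 4.83 CPM in GV CKO libraries. Ovulated WT libraries had 3.71, 7.10 and 3.83 CPM, and ovulated CKO libraries 14.4, 17.2 and 6.49 CPM. Ovulated CKO replicates 1 and 2 were above every other library, while replicate 3 was within the range of the GV and ovulated WT libraries. From GV to ovulated Cacna1h differed by -0.56 (SE 0.391, edgeR adjusted p 0.222) in WT oocytes and rose by 1.05 (SE 0.383, edgeR adjusted p 0.0278) in CKO oocytes on the log2 scale. The CKO call was lost without GV CKO replicate 3 (edgeR adjusted p 0.0708), ovulated CKO replicate 1 (0.0781) or ovulated CKO replicate 2 (0.154).

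Trpm7 encodes a divalent cation channel fused to a kinase (chromosome 2, 126791558 to 126876261, gene ID 58800). GV WT libraries had 15.3, 14.6, 36.7 and 10.9 CPM and GV CKO libraries 22.4, 29.3, 27.2 and 20.9 CPM. Ovulated WT libraries had 51.0, 22.4 and 29.7 CPM and ovulated CKO libraries 45.8, 31.2 and 36.2 CPM. GV WT replicate 3 lay above 2 of the 3 ovulated WT libraries, whereas the CKO stages did not overlap. The log2 difference was 0.79 (SE 0.363, edgeR adjusted p 0.0662) in WT and 0.55 (SE 0.363, edgeR adjusted p 0.212) in CKO oocytes, and neither passed. Without GV WT replicate 3 the WT value was 1.29 (edgeR adjusted p 0.00206), and without ovulated WT replicate 2 it was 0.97 (0.0396).

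Mcu, the pore of the mitochondrial calcium uniporter (chromosome 10, 59446984 to 59617409, gene ID 215999), had 93.8, 69.9, 101 and 110 CPM in GV WT and 77.1, 111, 76.2 and 67.7 CPM in GV CKO libraries. It had 304, 208 and 375 CPM in ovulated WT and 158, 210 and 241 CPM in ovulated CKO libraries. Every ovulated library was above every GV library. Mcu rose 3.09-fold in WT (log2 fold change 1.63, SE 0.264, edgeR adjusted p 6.36e-05) and 2.36-fold in CKO oocytes (1.24, SE 0.263, edgeR adjusted p 0.000857).

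Camk2g, the effector kinase gene (chromosome 14, 20734873 to 20794157, gene ID 12325), had 190, 219, 156 and 240 CPM in GV WT and 183, 221, 146 and 230 CPM in GV CKO libraries. Ovulated WT libraries had 303, 316 and 325 CPM, a narrow range, and ovulated CKO libraries had 245, 397 and 304 CPM. The stages did not overlap in either genotype, and the rise was the smallest of the called ones. It came to 0.61 (SE 0.240, edgeR adjusted p 0.0356) in WT and 0.64 (SE 0.240, edgeR adjusted p 0.0311) in CKO oocytes on the log2 scale. The WT call was lost without GV WT replicate 1 (edgeR adjusted p 0.0735), GV WT replicate 3 (0.1001), ovulated WT replicate 2 (0.0723) or ovulated WT replicate 3 (0.0885), and among genes with a mean of at least 10 CPM (0.0844). The CKO call was lost without GV CKO replicate 3 (edgeR adjusted p 0.0879), ovulated CKO replicate 2 (0.184) or ovulated CKO replicate 3 (0.0559).

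**Figure D2:**
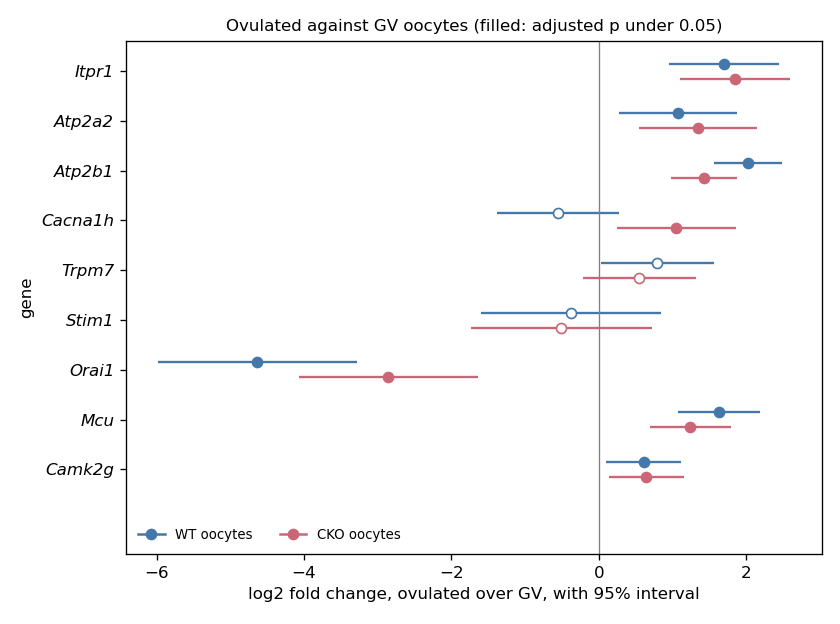
Log2 fold change of ovulated over GV oocytes for each of the 9 genes (horizontal axis), with 95% intervals as lines, in WT (blue) and CKO (red) oocytes; filled points passed an adjusted p under 0.05. Orai1 lies at -4.63 and -2.86, and Atp2b1, the highest WT value, at 2.02.

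Loss of CLPX was compared within each stage. In GV oocytes none of the 9 genes passed the edgeR test, in which 3 of 12265 genes were called (0.0245%), 0.0163% higher and 0.00815% lower, and 704 genes had an unadjusted p under 0.05, none of them a member. DESeq2 and voom called no member either. No member's groups were apart, against 3.82% of all genes tested. Member log2 differences lay between -0.26 (Cacna1h) and 0.38 (Atp2a2), with adjusted p-values of 0.834 or more. The median of the members was 0.09, beside 0.02 over all genes. The member with the smallest unadjusted p was Atp2b1, which differed by 0.37 (SE 0.174, 95% interval -0.0127 to 0.745, edgeR adjusted p 0.834). For Orai1 the interval was -0.502 to 0.523, for Camk2g -0.499 to 0.397 and for Mcu -0.629 to 0.254. Wider intervals were those of Stim1 (-1.12 to 1.30), Atp2a2 (-0.420 to 1.17), Trpm7 (-0.369 to 1.08), Itpr1 (-0.628 to 0.890) and Cacna1h (-0.902 to 0.392). All of these leave room for changes of up to those sizes.

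In ovulated oocytes no member passed either, where 1 of 12044 genes, Clpx, was called (0.0083%) and 935 genes had an unadjusted p under 0.05, of which 2, Cacna1h and Atp2a2, are members. DESeq2 and voom called no member either. Of the members, 2 of 9 had groups that did not overlap, against 10.4% of all genes tested: Itpr1 and Atp2a2, both higher in CKO libraries. For Itpr1 the gap was between 92.8 CPM, the highest WT library, and 93.2 CPM, the lowest CKO library, and the log2 difference was 0.28 (95% interval -0.312 to 0.877, edgeR adjusted p 0.819). Atp2a2 was at 236 to 412 CPM in WT and 492 to 582 CPM in CKO libraries, a difference of 0.64 (0.0152 to 1.26, edgeR adjusted p 0.633).

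The members that stood farthest from 0 in ovulated oocytes were Orai1 and Cacna1h, both with higher means in CKO libraries. The mean of Orai1 was 3.32 ± 2.36 CPM over the CKO libraries and 0.936 ± 0.590 CPM over the WT libraries (SD, n = 3 each), a log2 difference of 1.75 (95% interval -0.0335 to 3.54, edgeR adjusted p 0.651). That of Cacna1h was 12.7 ± 5.57 CPM over the CKO libraries and 4.88 ± 1.92 CPM over the WT libraries, a log2 difference of 1.33 (0.338 to 2.33, edgeR adjusted p 0.551). In both genes CKO replicate 3 overlapped the WT libraries and the other CKO replicates did not. Without that library the differences were 2.19 for Orai1 (edgeR adjusted p 0.175) and 1.59 for Cacna1h (0.111), and the number of genes called over the whole table went from 1 to 201. Mcu was lower in CKO libraries by 0.57 on the log2 scale (-1.26 to 0.118, edgeR adjusted p 0.706), and Camk2g, Stim1, Trpm7 and Atp2b1 lay between -0.24 and 0.10.

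Whether the CKO difference itself changed with stage was tested as an interaction over the 14 libraries, in which 1 of 13158 genes was called (0.0076%) and no member was. The interaction was 1.77 (95% interval 0.166 to 3.38, unadjusted p 0.0325, edgeR adjusted p 0.497) for Orai1 and 1.60 (0.445 to 2.76, unadjusted p 0.0096, edgeR adjusted p 0.368) for Cacna1h. Without ovulated CKO replicate 3, the interaction of Orai1 was 2.25 and passed (edgeR adjusted p 0.0406), in a fit that called 498 genes. That of Cacna1h was then 1.92 (edgeR adjusted p 0.0524). Cacna1h thus passed between the stages in CKO and not in WT oocytes, while the test of that difference did not pass.

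**Figure D3:**
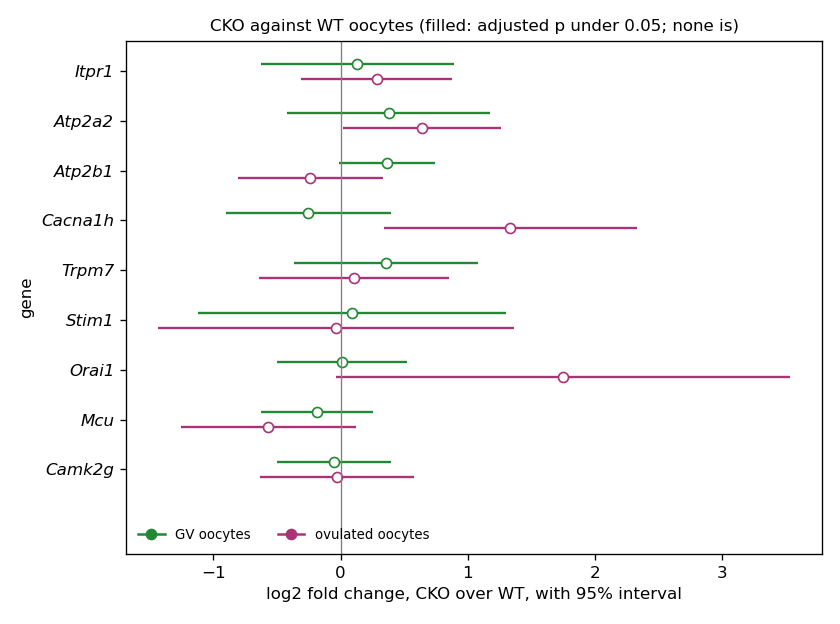
Log2 fold change of CKO over WT oocytes for each of the 9 genes (horizontal axis), with 95% intervals as lines, in GV (green) and ovulated (purple) oocytes; no point passed an adjusted p under 0.05. GV values lie between -0.26 and 0.38, and the ovulated values of Orai1 and Cacna1h at 1.75 and 1.33.

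Levels of different genes were compared on the deposited FPKM scale, which divides by transcript length. In GV WT oocytes Camk2g was the most abundant member, with 54.3 ± 4.07 FPKM (SD, n = 4), followed by Atp2a2 with 35.2 ± 16.7 and Mcu with 33.8 ± 9.11 FPKM. Orai1 came next with 14.9 ± 3.78 FPKM, then Atp2b1 with 7.70 ± 1.42, Trpm7 with 2.84 ± 2.16, Itpr1 with 2.49 ± 1.49, Cacna1h with 0.860 ± 0.435 and Stim1 with 0.405 ± 0.383 FPKM. Library ranges of neighbours in this order overlapped, except between Mcu and Orai1, Orai1 and Atp2b1, and Atp2b1 and Trpm7. The order was the same in GV CKO oocytes, from Camk2g with 46.1 ± 1.13 FPKM to Stim1 with 0.348 ± 0.105 FPKM. In ovulated WT oocytes Mcu led with 128 ± 33.2 FPKM (SD, n = 3), ahead of Camk2g with 107 ± 16.7 and Atp2a2 with 93.4 ± 31.4 FPKM, with overlapping ranges. Orai1 was then at 1.10 ± 0.754 FPKM, beside Cacna1h with 0.737 ± 0.387 FPKM, and these changed places when CPM was divided by annotated length instead. In ovulated CKO oocytes Atp2a2 led with 155 ± 24.6 FPKM, ahead of Camk2g with 113 ± 35.7 and Mcu with 92.9 ± 17.0 FPKM. There the range of Camk2g overlapped both that of Atp2a2 and that of Mcu. The transcript length that the FPKM of Orai1 implies had a median of 1463 nucleotides in GV and 1118 in ovulated libraries, and with a shorter length the same count gives a higher FPKM.

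**Figure D4:**
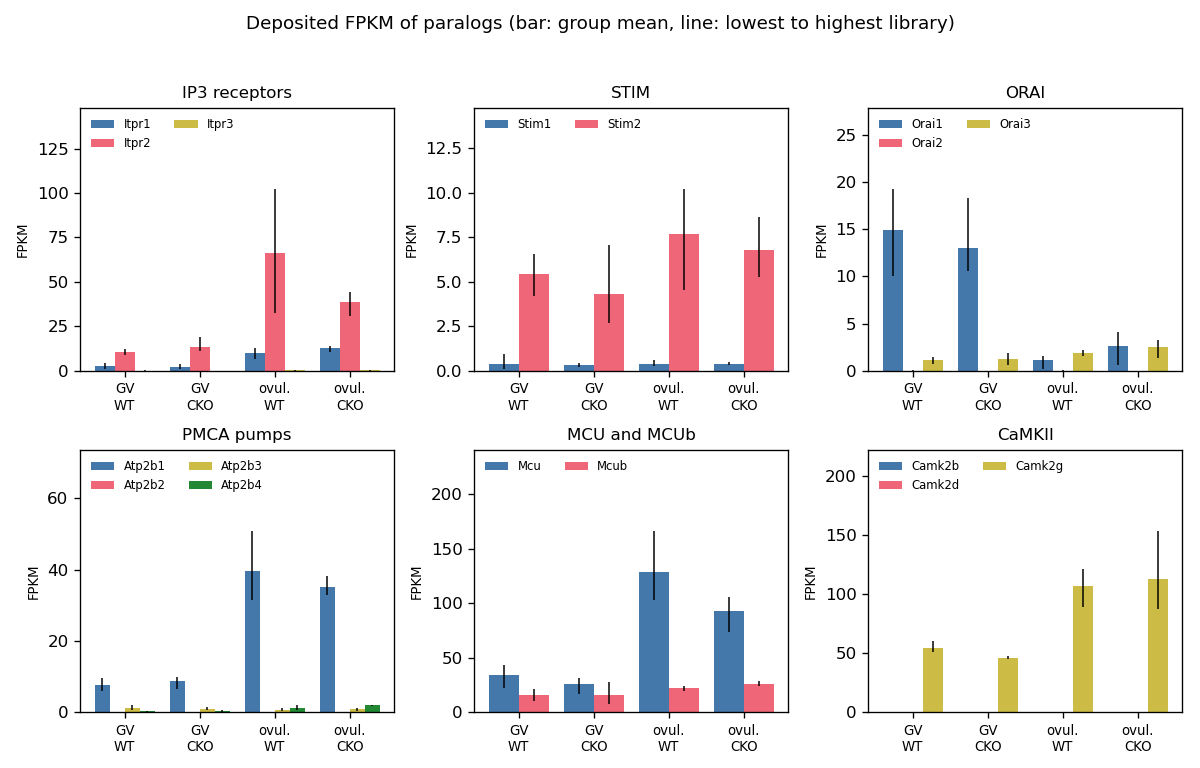
Deposited FPKM (vertical axes, each starting at 0) of 6 families by stage and genotype; bars are group means and lines run from the lowest to the highest library. Itpr2 and Stim2 stand above Itpr1 and Stim1 in every group, and Orai1 stands above Orai3 in GV oocytes.

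Itpr1 and Stim1 were not the most abundant gene of their family in any group. Itpr2, another IP3 receptor, was at 10.8 ± 1.26 FPKM in GV WT and 66.4 ± 34.8 FPKM in ovulated WT oocytes, beside 2.49 and 9.73 FPKM for Itpr1. Itpr2 made up 70.7 to 92.0% of the summed FPKM of the 3 receptors in GV WT libraries and 69.7 to 80.2% in ovulated CKO libraries. Its log2 fold change from GV to ovulated was 2.17 in WT (edgeR adjusted p 3.34e-05) and 0.90 in CKO oocytes (0.0247), and the interaction was -1.27 (edgeR adjusted p 0.398). Stim2, a second store sensor, was at 5.41 ± 1.14 FPKM in GV WT and 7.67 ± 2.89 FPKM in ovulated WT oocytes, beside 0.405 and 0.383 FPKM for Stim1. Stim2 held 85.6 to 97.6% of the STIM sum over all libraries.

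Other members held the largest mean share of their families, Orai1 only in GV oocytes. Camk2g held at least 99.5% of the summed FPKM of Camk2b, Camk2d and Camk2g in every library, and Camk2a was not analysed here. Cacna1h held 65.2 to 92.4% of the T-type channel sum over all libraries, with Cacna1i next. Atp2b1 held a mean of 85.3% of the plasma membrane pump sum in GV WT and 95.04% in ovulated WT oocytes. Mcu held 67.7% of the sum with its inhibitory paralog Mcub in GV WT and 84.9% in ovulated WT oocytes, and Mcub differed by 0.18 on the log2 scale between these stages (edgeR adjusted p 0.555). The share of Orai1 in the ORAI sum was 88.4 to 95.3% in GV WT libraries and 11.6 to 47.9% in ovulated WT libraries, where Orai3 had the larger mean share, 65.9%. Orai3 itself differed by 0.38 (edgeR adjusted p 0.392) between the WT stages. Trpm6, the paralog of Trpm7, was at 6.66 to 9.02 CPM in GV WT and 4.38 to 5.11 CPM in GV CKO libraries, and at 4.33 to 7.06 CPM in ovulated WT and 2.13 to 2.36 CPM in ovulated CKO libraries. The genotypes did not overlap at either stage, but the differences of -0.68 and -1.36 on the log2 scale did not pass over all genes (edgeR adjusted p 0.732 and 0.524).

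The members were set beside 119 other genes of calcium handling. Of 88 tested between the WT stages, 24 were higher and 25 lower, with a median log2 fold change of 0.18. Of 88 tested between the CKO stages, 22 were higher and 20 lower. In the genotype comparisons 0 of 85 passed in GV oocytes and 0 of 85 in ovulated oocytes by edgeR, where 4 and 8 had an unadjusted p under 0.05.

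By role, the list of release channels and their partners had 5 higher and 4 lower of 11 tested in the WT stages besides Itpr1. Those higher included Itpr2 and the TRIC channel gene Tmem38b (log2 fold change 1.35), and those lower included Tmem38a (-3.10) and the ryanodine receptor gene Ryr3 (-1.04). Ryr2, another ryanodine receptor gene, was higher (1.30, edgeR adjusted p 0.0169) and is named after its values were seen. Both ryanodine receptor genes were low. Means in GV WT and ovulated WT oocytes were 4.36 and 2.16 CPM for Ryr3 and 0.887 and 2.25 CPM for Ryr2. Of 15 genes of IP3 production and removal, 3 were higher and 3 lower: the phospholipase C genes Plcb3 (2.65) and Plcb1 (1.69) rose, and Plcd3 (-4.98) and Plce1 (-1.62) fell. Plcd3 was scarce, with means of 0.465 CPM in GV WT and 0.010 CPM in ovulated WT oocytes. Plcb3 was low too, at 0.548 and 3.54 CPM, whereas Plcb1 was at 5.37 and 17.8 CPM and Plce1 at 249 and 82.6 CPM. Of 12 other entry channels 2 were higher, Trpc1 (2.18) and Cacna1d (0.95), and 1 was lower, Trpv3 (-1.26). These channel genes were low too. Their means in GV WT and ovulated WT oocytes were 0.733 and 3.44 CPM (Trpc1), 4.93 and 9.83 CPM (Cacna1d) and 3.63 and 1.54 CPM (Trpv3). Of 4 other pumps and exchangers tested, Atp2b4 (2.09) and Atp2c1 (0.92) were higher, and Atp2c2 (-1.63) and Atp2b3 (-0.92) lower. Atp2b4 had means of 1.94 and 8.56 CPM in these groups and Atp2b3 of 5.51 and 2.98 CPM. Atp2c1 was at 198 and 384 CPM and Atp2c2 at 20.9 and 6.96 CPM.

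Around Mcu, 4 of 15 other genes of mitochondrial calcium were higher and 5 lower in ovulated WT oocytes. The gene of its small subunit, Smdt1, fell (-1.09), while Mcur1 rose (1.30) and the outer membrane channel genes split, with Vdac1 higher (0.65) and Vdac2 (-1.86) and Vdac3 (-2.53) lower. Of 13 genes of store buffers and folding, 2 were higher and 6 lower, with a median of -0.96, the lowest of these lists. Sdf4 (-3.23) and Nucb1 (-2.79), which encode calcium-binding proteins of the secretory pathway, were among those lower, and Canx (0.83), the calnexin gene, was among those higher. Of 18 effector genes besides Camk2g, 6 were higher and 4 lower. Of the calcineurin genes, Ppp3ca (1.98) and Ppp3r1 (1.04) rose and Ppp3cc (-2.47) fell, and the gene of the meiotic arrest factor EMI2, Fbxo43 (0.89), rose. Calm2 (-3.75) and Calm3 (-1.65), which encode the calcium sensor calmodulin, fell.

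Some of these genes passed in WT and not in CKO oocytes. Between the CKO stages Smdt1 was at -0.26 (edgeR adjusted p 0.603), Calm3 at -0.45 (0.482), Ppp3cc at -0.61 (0.274) and Plcd3 at -1.49 (0.0916). Ryr2, Cacna1d, Trpv3, Atp2c1, Atp2b3, Canx and Ppp3r1 did not pass there either. Of the store buffer and folding genes 1 was higher and 6 were lower in CKO oocytes, with a median of -0.57. In the test of the difference between the genotypes 0 of the 88 genes passed by edgeR, and 7 had an unadjusted p under 0.05.

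Some genes outside the calcium lists had a pattern across the 14 libraries close to that of a member, among genes with a mean of at least 10 CPM. On log2 CPM, Smurf2 and Kmt2b were closest to Itpr1, both with a Pearson r of 0.995. Champ1 (r = 0.953) and Dcaf8 (r = 0.939) were closest to Camk2g, and Carhsp1 (r = 0.871) and Wdr82 (r = 0.870) to Cacna1h. These values describe libraries that share stage, table and depth, and they were the highest among 6781 genes compared, or 6782 for Cacna1h.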

How the data were processed

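Mouse oocyte RNA was profiled with SMART-Seq2, per the labels' protocols. The authors deposited expected counts (14.4 to 16.3% of a library's values are fractional) and FPKM values per gene and library, for each stage in a table of its own. The build is mm10, per the submitters' processing notes; the aligner, counter and annotation are not given in the sources used here. The members and gene lists were chosen with earlier results of these data known.

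Expected counts were rounded. Tables were joined by gene ID. Genotypes were compared within a stage, and stages and the interaction over all 14 libraries in a model of 4 groups, with edgeR 4.0.16 in R 4.3.3 (robust quasi-likelihood F-test after TMM scaling, on genes kept by filterByExpr at its minimum count of 10). P-values were adjusted by Benjamini-Hochberg over all genes tested, with a threshold of 0.05. The fit was tested on simulated data. CPM uses TMM-scaled library sizes. Named are all members, their paralogs, Clpx, and, of the calcium lists, genes that passed (up to 4 per list and direction, by size of change among those of at least 10 CPM where more passed), from which examples are given and some genes are not reported here; and the 2 genes closest to Itpr1, Cacna1h and Camk2g. Alternatives were DESeq2 1.42.0, voom of limma 3.58.1, total-count scaling, other filters, other sets of libraries, each library left out, and replicate number as a block. Positions are from RefSeq and transcript ends from GENCODE M21, both of build GRCm38. No per-library count interval is given, since PCR copies are not independent molecules. Replicates within a group were not copies: chi-square per degree of freedom over 18 pairs was 40.6 to 325.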

Additional observations from a re-analysis of the deposited data

How the results depend on the processing

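The calls on Itpr1, Orai1, Atp2b1 and Mcu between the stages held under every alternative run. Trpm7 passed between the WT stages with DESeq2 (adjusted p 0.0442) and voom (0.0447), and between the CKO stages with total-count scaling (0.0389) and in a fit of those groups alone (0.0422). The number of genes called moved with the tool and the filter: DESeq2 called 39 in GV, 114 in ovulated oocytes and 64 for the interaction, against 3, 1 and 1 with edgeR, and the fit of all libraries called 64 in ovulated oocytes. With a mean of at least 10 CPM, and so fewer genes tested, 5061 and 4812 genes were called between the WT and the CKO stages. For the interaction voom and that filter called 0 genes, at 948 and 595 with an unadjusted p under 0.05. No member was called in any of these genotype fits. Members under a mean of 10 CPM could not be called with that filter, since they were not tested. These were Stim1 in each fit, Cacna1h in GV oocytes and for the interaction, and Orai1 in ovulated oocytes.

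Small differences changed sign. In GV oocytes Orai1 was at -0.0054 with voom, -0.17 with total counts and -0.030 with the 10 CPM filter, and Itpr1 and Stim1 at -0.051 and -0.23 with total counts. With total counts Camk2g and Stim1 were at 0.068 and 0.021 between ovulated genotypes, Stim1 at 0.14 between the CKO stages, and the interactions of Trpm7 and Stim1 at 0.13 and 0.25. Under that scaling the median of all genes tested went from 0.023 to -0.14 in GV oocytes and from -0.00048 to 0.088 between ovulated genotypes. It went from -0.14 to 0.45 between the CKO stages and from 0.0042 to 0.25 for the interaction. The cause of the sign changes was not tested.

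Same-numbered WT and CKO libraries deviated together in some pairs and not in others (r of -0.30, 0.22, 0.42 and 0.67 for GV replicates 1 to 4, and of -0.41, 0.39 and -0.06 for ovulated replicates 1 to 3). The numbers were therefore not taken to pair the libraries, and not every library was closest to the one with its own number. With the replicate number as a block, Orai1 in GV oocytes was at -0.0011, Stim1 in ovulated oocytes at 0.0027, and 0 genes were called for the interaction (1080 with an unadjusted p under 0.05). The block by number shared across groups, chosen after seeing the data, left Atp2a2 between the WT stages at an adjusted p of 0.0561 and Cacna1h between the CKO stages at 0.0768.

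Leaving out 1 library at a time gave 3 to 6 called genes in GV, 1 to 201 in ovulated oocytes and 0 to 498 for the interaction, with 0 to 1 members. In GV oocytes Itpr1 ranged from -0.13 to 0.45, Camk2g from -0.16 to 0.058, Stim1 from -0.22 to 0.85 and Orai1 from -0.16 to 0.14. In ovulated oocytes Camk2g ranged from -0.21 to 0.15, Trpm7 from -0.13 to 0.44 and Stim1 from -0.24 to 0.32. Stim1 between the WT stages ranged from -0.77 to 0.36, and the interactions of Itpr1 from -0.16 to 0.47, Camk2g from -0.18 to 0.22, Trpm7 from -0.75 to 0.13 and Stim1 from -0.87 to 0.26.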
